A study of Mus musculus with 2 samples.

Results

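The keratinocytes described here came from a single-cell RNA library of preputial gland, and were chosen by the UMI levels of a few genes. A UMI is a unique molecular identifier, which counts 1 captured transcript. A barcode was kept as a cell if it held 500 or more genes, 1000 or more UMIs and no more than 10% of UMIs from mitochondrial genes. Members had at least 50 UMIs per 10000 from the sum of Krt1, Krt10, Krtdap, Sbsn and Krt79, under 200 per 10000 from Dbi, and fewer than 3 of 8 cell cycle genes detected. The rule selected 350 of the 4699 kept preputial gland cells, 7.45% (95% Clopper-Pearson interval 6.71% to 8.24%), out of 13598 kept cells in the series.

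The series holds 2 libraries, 1 of preputial gland and 1 of back skin, from male wild type C57BL/6 mice that were 52 weeks old and had been given no stated treatment. Per the study's methods 3 mice gave both tissues, and the samples of each tissue were pooled, so the libraries share their donors. The preputial gland library held 26288071 UMIs in 309839 barcodes and the back skin library 37675226 UMIs in 571670 barcodes. The lists of possible barcodes differed, with 737280 in preputial gland and 6794880 in back skin, and 77142 sequences stood on both, but no kept cell of one library had the barcode of a kept cell of the other. The labels name the same kit for both libraries, whereas the lists differ, so the chemistry of the libraries may differ too. With 1 library per tissue there are no replicates, so no test was possible: ratios describe these libraries, the 95% intervals given with them reflect counting error alone, and tissue, library, chemistry and barcode list cannot be told apart. The members had a median of 3922 UMIs and 1312 genes per cell, against 2408 UMIs in preputial gland basal keratinocytes, 6154 in Dbi-high cells (Dbi of at least 200 per 10000) and 1366 in fibroblasts of the same library.

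The preputial gland is a large paired gland that opens beside the penis. Its acini are filled with sebocytes, which turn themselves into lipid secretion, and a stratified squamous epithelium lines the ducts that carry it out. In stratified epithelia, basal keratinocytes stand on the basement membrane, express Krt5 and Krt14, and move upward as they differentiate. In the epidermis the spinous cells above them switch to Krt1 and Krt10 and then build a cornified envelope from loricrin, filaggrin and late envelope proteins. Sebaceous duct and upper hair follicle cells instead are known for Krt79 and Krt17.

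The label given to these cells, suprabasal and duct keratinocytes, was checked against its 6 markers, of which Krtdap, Sbsn, Krt79 and Krt10 belong to the rule and are given as a description. Krtdap, a secreted protein of differentiating keratinocytes, carried 70.1% of the members' UMIs from the 5 rule genes and was at 10883 counts per 1000000 UMIs of the class (CPM). Krt79 carried 19.3% at 3004 CPM and Sbsn, which encodes suprabasin, 9.72% at 1509.7 CPM. Krt10, the keratin that defines suprabasal epidermis, was at only 34.7 CPM, beside 29.7 CPM in preputial gland basal keratinocytes, 40.8 CPM in fibroblasts and 17.2 CPM in free RNA, the sum of barcodes with at most 50 UMIs. In back skin cells of the same rule Krt10 was at 11969.6 CPM. Krt1, its partner, was at 95.1 CPM from 145 UMIs that lay in 11 of the 350 cells. The data thus went against Krt10 as a marker of these cells, and they are called Krtdap/Krt79 keratinocytes below. The name is taken from the leading genes of the rule and does not hold for each cell, since 74.6% of the members had a Krt79 UMI. Of the 2 markers outside the rule, Klk10, a secreted serine protease of the kallikrein family, was at 82.6 CPM against 0.899 CPM in basal keratinocytes and was seen in 4.86% (interval 2.85% to 7.66%, 8.57% unthinned) of cells thinned to 1000 UMIs, beside 0.309% of fibroblasts. Spink5, an inhibitor of such proteases, was at 384 CPM against 13.5 CPM and was seen in 15.7% (interval 12.1% to 20%, 36% unthinned), beside 0.463% of fibroblasts.

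**Figure D1:**
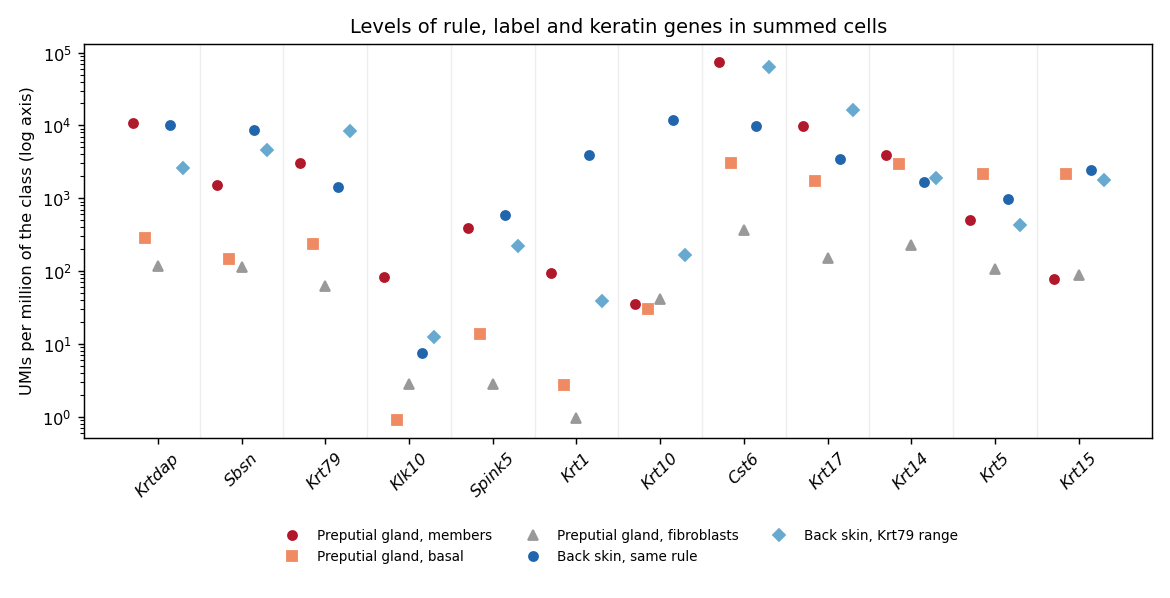
Levels in CPM of the class (log axis) of 12 genes in the Krtdap/Krt79 keratinocytes (members, 350 cells), basal keratinocytes and fibroblasts of preputial gland, and in back skin cells of the same rule (2086) and of its Krt79 range (237). Points are sums over cells with no error drawn. Krtdap and Cst6 of the members lie near 10883 and 74491 CPM, while their Krt10 lies at 34.7 CPM beside 11969.6 CPM in back skin.

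The limits of the rule cut through a continuous distribution. The lowest member had 51 UMIs per 10000 from the 5 genes and the highest cell below the limit 49.8. The members had a median of 126 and a maximum of 485. Between 50 and 60 lay 30 members, and between 40 and 50 lay 51 cells that met the other conditions. Dbi, the acyl-CoA binding protein that is abundant in sebocytes, had a median of 70.7 per 10000 in the members, with 195 in the highest member. The limit on Dbi left out 18 cells with the keratinocyte sum, the lowest of them at 202, and the cycle genes left out 7.

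Some members carried transcripts of other cell types. In 12 of the 350 cells Col1a1, Col1a2, Col3a1 and Dcn together reached 50 per 10000, with a median of 102 per 10000 from Dcn and 44.5 from Sbsn, while 11 of the 12 had no Krt17 UMI and 10 no Krt79 UMI. These cells had a median of 1417 UMIs, and they passed the rule mainly through Sbsn. At least 3 of 6 fibroblast markers were detected in 17 members, 3 of 7 immune markers in 3 members, and 3 endothelial, contractile, melanocyte, inner root sheath or Merkel cell markers in 0 of 350, which by the limit of 3 counts allows up to 0.857% of cells with 3 such markers detected. At least 3 of 10 sebocyte markers, of which the rule limits Dbi, were detected in 145 members, and 3 of 6 basal keratinocyte markers in 77. One cell held 299 of the 302 UMIs of Igkv4-55 and 228 of the 234 of Ighm, immunoglobulin genes of B and plasma cells. The counts below that changed by more than 1.5 times without these cells are named where they occur.

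The rule genes that do and do not mark these cells are shown by the 250 bases before their transcription start (RefSeq, GRCm38.p6, the build named mm10 in the submitters' notes), 5′ to 3′ on the strand of the gene. Krtdap and Sbsn lie close together on chromosome 7, with Dmkn between them. Capitals mark TGANTCA, a loose form of the AP-1 motif with any base at N, and TATAAA. Both were searched on both strands, and no 2 matches overlap. Krtdap covers chr7:30787655-30787904 (plus strand), Sbsn chr7:30751221-30751470 (plus), Krt79 chr15:101940325-101940574 (minus) and Krt10 chr11:99389365-99389614 (minus).
Krtdap: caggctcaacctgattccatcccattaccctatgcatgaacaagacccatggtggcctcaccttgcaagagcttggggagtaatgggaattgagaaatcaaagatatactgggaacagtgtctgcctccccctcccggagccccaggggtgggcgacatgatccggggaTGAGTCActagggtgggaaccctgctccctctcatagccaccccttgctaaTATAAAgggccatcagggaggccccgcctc
Sbsn: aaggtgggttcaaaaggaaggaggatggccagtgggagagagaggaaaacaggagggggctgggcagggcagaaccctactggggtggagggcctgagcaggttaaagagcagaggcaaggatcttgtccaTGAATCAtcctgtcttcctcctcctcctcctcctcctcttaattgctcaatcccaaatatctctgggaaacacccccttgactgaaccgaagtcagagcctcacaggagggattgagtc
Krt79: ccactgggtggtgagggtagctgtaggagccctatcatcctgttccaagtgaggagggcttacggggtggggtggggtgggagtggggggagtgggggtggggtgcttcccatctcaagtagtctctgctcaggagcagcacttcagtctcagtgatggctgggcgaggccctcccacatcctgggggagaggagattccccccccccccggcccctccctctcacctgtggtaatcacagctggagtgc
Krt10: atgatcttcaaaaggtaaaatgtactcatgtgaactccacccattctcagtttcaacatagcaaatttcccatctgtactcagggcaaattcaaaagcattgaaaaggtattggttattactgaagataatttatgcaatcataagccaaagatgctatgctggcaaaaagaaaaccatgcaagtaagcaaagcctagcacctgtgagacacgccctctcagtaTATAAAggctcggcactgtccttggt
TGANTCA was found once in Krtdap, as TGAGTCA, and once in Sbsn, as TGAATCA. It was present in 6.75% of 32851 promoter windows of this length. TATAAA was found once in Krtdap and once in Krt10, against 12.4% of all windows. Neither set of letters was in the Krt79 window. A match is a description of the sequence only.

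The most abundant transcript of the Krtdap/Krt79 keratinocytes apart from ribosomal and mitochondrial genes was Cst6, which encodes cystatin E/M, a secreted inhibitor of cysteine proteases. Cst6 reached 74491 CPM, 7.45% of all UMIs, against 3017 CPM in basal keratinocytes, 3923 CPM in Dbi-high cells, 364 CPM in fibroblasts and 7637 CPM in free RNA. By their definition the Dbi-high cells take in 18 that also had the keratinocyte sum, with Cst6 at 87195 CPM. The 3923 CPM of the class thus does not describe its other cells alone. In the members Cst6 was followed by Lgals7 (galectin-7, 12423 CPM), Krtdap, Krt17 (9843 CPM), Tmsb4x (8724 CPM) and Dbi (8067 CPM). Next came Fabp5, a fatty acid carrier of keratinocytes, at 7844 CPM, the cytosolic cystatin Cstb at 7631 CPM, the surface protein Ly6d at 7579.5 CPM, and the beta-defensin Defb6 at 6627 CPM. Sprr1a, a precursor of the cornified envelope, was at 5059.6 CPM. Lcn2, which binds bacterial siderophores, was at 4836 CPM and dermokine (Dmkn) at 4703 CPM, and Tpt1 and Fau complete the 15 leading genes at 6238 and 5028 CPM. Levels of different genes were compared as UMIs, which count 3′ ends and were not divided by length.

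These transcripts were found in most of the cells. After thinning to 1000 UMIs, Cst6 was seen in 86.3% (interval 82.2% to 89.7%, 91.7% unthinned), Krt17 in 92.9% (interval 89.6% to 95.3%, 95.4% unthinned), Fabp5 in 90.3% (interval 86.7% to 93.2%, 95.4% unthinned) and Defb6 in 86.3% (interval 82.2% to 89.7%, 91.7% unthinned) of the members. In fibroblasts, which should lack them, the shares were 18.2% for Cst6, 4.48% for Krt17, 8.8% for Fabp5 and 3.7% for Defb6. Lcn2 was seen in 89.1% (interval 85.4% to 92.2%, 96% unthinned) of the members, 77.3% of basal keratinocytes and 21.1% of fibroblasts. Krt10 was seen in 4.86% (interval 2.85% to 7.66%, 14% unthinned) of the members and 4.94% of fibroblasts, which is the level of the background.

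The members were compared with basal keratinocytes of the same library, to describe how they differ from cells rich in basal keratins. These were 852 cells with at least 50 per 10000 from Krt5, Krt14 and Krt15 and under 50 from the 5 genes. They also had Dbi under 200 and fewer than 3 cycle genes. Their contractile markers summed to 422 CPM (92.4 in the members) and their sebocyte lipid genes to 3756 CPM (2024). Their fibroblast and immune markers summed to 164 and 49.4 CPM (258 and 115 in the members). The part of such transcripts in the ratios was not tested. Of 2733 genes with at least 50 CPM in either class, 258 (9.44%) were at least 2-fold higher and 415 (15.2%) at least 2-fold lower in the members. Genes that the rules use were not counted. A gene that reached 50 CPM in only 1 of the classes was described because it was high there, so the counts of lists are also given for genes at 50 CPM in both. In the sentences below, a value with an interval after a pair of levels is the log2 ratio of the first level to the second. The median log2 ratio of all genes was -0.20, and list medians are read against it. With the median set to 0 the counts were 341 and 306.

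Proteases and their inhibitors formed the list with the most genes above 2-fold. Of it, 14 of 18 described genes were at least 2-fold higher and 0 at least 2-fold lower (median log2 ratio 1.56), against 8 and 0 of the 11 at 50 CPM in both classes. Cst6 had a log2 ratio of 4.63, interval 4.59 to 4.66, and the leukocyte protease inhibitor Slpi was at 3593 against 298 CPM (3.59, interval 3.47 to 3.71). Wfdc18, with a protease inhibitor domain of the same family, was at 2387 against 249.9 CPM (3.26, interval 3.13 to 3.39). The lysosomal cathepsins Ctsa, Ctsb, Ctsc, Ctsd, Ctsh and Ctsl were all at least 2-fold higher, with log2 ratios from 1.01 for Ctsc to 1.64 for Ctsl. Of the antimicrobial and inflammatory list, 11 of 15 described genes were at least 2-fold higher and 1 at least 2-fold lower (median log2 ratio 2.27), against 6 and 1 of the 8 at 50 CPM in both classes. Defb6 was at 6627 against 843 CPM (2.98, interval 2.90 to 3.05), Ly6g6c at 2357 against 58.9 CPM (5.32, interval 5.07 to 5.59) and the peptidoglycan binding protein Pglyrp1 at 305 against 65.6 CPM (2.22, interval 1.94 to 2.49). The chemokine Cxcl14 was the 1 lower gene, 215 against 909 CPM. Some genes, such as Cst6, Slpi, Trp63 and Cdh3, stand on more than 1 list.

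Of the list of other keratins, 5 of 5 described genes were at least 2-fold higher and 0 at least 2-fold lower (median log2 ratio 2.51), against 3 and 0 of the 3 at 50 CPM in both classes. Krt17 was at 9843 against 1746 CPM (2.50, interval 2.44 to 2.55) and Krt6a, a keratin of follicle companion cells and of wounds, at 1819 against 319 CPM (2.51, interval 2.39 to 2.63). Krt16, the partner of Krt6, was at 139 against 8.54 CPM, Krt23 at 85.9 against 7.19 CPM, and Krt8, a keratin of simple epithelia, at 252 against 99.3 CPM. The 3 basal keratins, which chose the basal class, differed from each other in the members. Krt5 was at 508 CPM against 2140.1 CPM in basal cells and Krt15 at 78.7 against 2174 CPM, whereas Krt14 was at 3969 against 2989 CPM.

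Of the list of basal keratins, integrins and basement membrane genes, 1 of 15 described genes were at least 2-fold higher and 10 at least 2-fold lower (median log2 ratio -1.71), against 1 and 1 of the 4 at 50 CPM in both classes, and the 1 higher gene was Ly6d. Dst, the linker of keratin to the hemidesmosome, was at 24.3 against 356 CPM (-3.88, interval -4.39 to -3.40) and its partner Col17a1 at 25.6 against 222 CPM (-3.12, interval -3.63 to -2.65). The integrin pair Itga6 and Itgb4 had log2 ratios of -2.62 and -2.19, and Trp63, the transcription factor of stratified epithelia, -1.27. Of spinous keratins and adhesion genes, 9 of 20 described genes were at least 2-fold higher and 1 at least 2-fold lower (median log2 ratio 0.91), against 7 and 0 of the 15 at 50 CPM in both classes. The desmosomal cadherins went in both directions, with Dsc2 at 196 against 34.2 CPM and Dsg3 at 304 against 115 CPM, but Dsg2 at 34.1 against 133 CPM. The connexin Gjb2 was at 258 against 60.7 CPM.

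Only 10 of 70 cornified envelope genes were abundant enough to describe. Of them, 6 were at least 2-fold higher and 2 lower (median 1.73), against 4 and 1 of the 7 at 50 CPM in both classes, with Sprr1a at 5059.6 against 399 CPM (3.67, interval 3.57 to 3.77), Anxa1 at 2899 against 619.7 CPM and Calm4, a calmodulin of keratinocytes, at 334 against 19.8 CPM. Of the barrier lipid list, 7 of 9 described genes were at least 2-fold higher and 0 at least 2-fold lower (median log2 ratio 1.71), against 3 and 0 of the 4 at 50 CPM in both classes. Alox12e, an epidermal lipoxygenase, was at 1125 against 279.5 CPM, Elovl4, which makes very long chain fatty acids, at 216 against 28.8 CPM, and Fabp5 at 7844 against 830.5 CPM (3.24, interval 3.17 to 3.31). Of tight junction genes, 4 of 8 described genes were at least 2-fold higher and 0 at least 2-fold lower (median log2 ratio 0.92), against 2 and 0 of the 4 at 50 CPM in both classes, led by claudin 4 (Cldn4) at 187 against 19.3 CPM (3.28, interval 2.81 to 3.78).

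The duct and upper follicle list was divided. Of it, 8 of 14 described genes were at least 2-fold higher and 5 at least 2-fold lower (median log2 ratio 1.40), against 4 and 0 of the 5 at 50 CPM in both classes. The higher genes were Krt17, Plet1, Defb6, Cst6, Atp6v1c2, Klk10, Nebl and Teddm3, and the lower ones Lrig1, Fst, Sostdc1, Cdh3 and Ptn. Teddm3 was at 371 against 10.8 CPM (5.10, interval 4.52 to 5.76). Lrig1, which marks stem cells of the upper follicle, was at 28.2 against 61.6 CPM. Nebl was only just above 2-fold, and had a log2 ratio of -0.08 with a basal keratin limit of 100 per 10000, where Zfp750 had -0.01. Transcription factors went in both directions, with 4 of 22 higher (Klf4, Klf5, Zfp750 and Bhlhe40), 5 lower and a median log2 ratio of 0.07, against 1 and 1 of the 12 at 50 CPM in both classes. In the Notch pathway the receptor Notch1 was at 30.2 against 132 CPM and its ligand Jag2 at 8.52 against 152 CPM, while Notch3 was at 59 against 24.3 CPM and the target Nrarp at 146 against 25.6 CPM. Of sebocyte lipid genes, 4 of 13 described genes were at least 2-fold higher and 6 at least 2-fold lower (median log2 ratio -0.32), against 0 and 5 of the 8 at 50 CPM in both classes, and the lower ones were abundant in free RNA (Scd1 3281, Mgst1 2896 CPM), a part that was not tested. Of immediate early and stress genes, 3 of 21 described genes were at least 2-fold higher and 1 at least 2-fold lower (median log2 ratio 0.27), against 3 and 0 of the 20 at 50 CPM in both classes. The 1 described Hox gene, Hoxd8, was at 28.2 against 52.1 CPM.

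**Figure D2:**
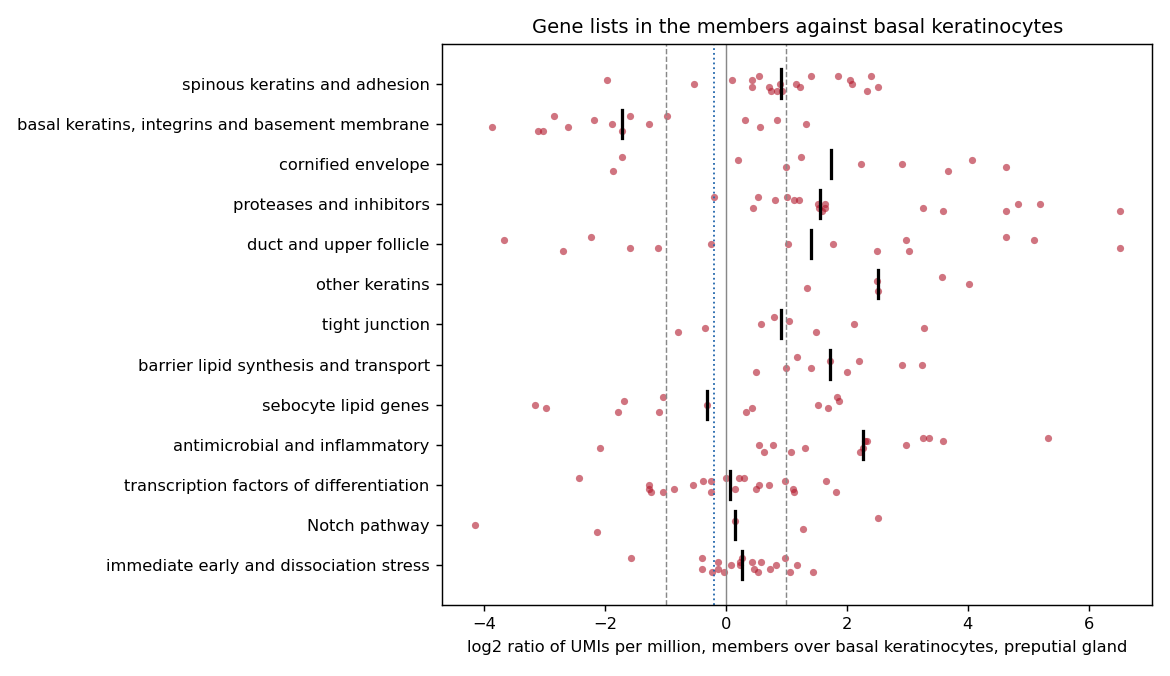
Log2 ratio of CPM, members over basal keratinocytes of preputial gland, for each described gene of 13 lists (points), with the list median (black bar), the 2-fold limits (dashed) and the median of all 2733 genes (dotted, -0.20). The medians run from -1.71 for the basal list to 2.51 for other keratins.

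By the rule for named genes, the largest ratios over basal cells were those of Clic3, an intracellular chloride channel protein, at 138 against 1.35 CPM (6.68, interval 5.11 to 8.97), and Gabrp, a GABA-A receptor subunit, at 65.6 against 1.35 CPM (5.60, interval 4.01 to 7.91). Both basal levels rest on 3 UMIs. Ly6g6c, Serpinb3a, Serpina1e, Teddm3, Chil1, Gsdma, Spink5, Ly6g6e, Cst6 and Tprg followed, with log2 ratios from 5.32 to 4.58. Among them Gsdma, gasdermin A, was at 197 against 6.29 CPM. The smallest ratios were those of Ctnnal1, Dlk2, Col16a1, Mthfd1, Jag2, Moxd1, Tgm2, Gsta3, Dst, Atic, Agrn and Irx4, from -6.54 to -3.85. Agrn encodes agrin of the basement membrane (4.59 against 67 CPM), Mthfd1 and Atic encode enzymes of folate and purine synthesis, and Gsta3 a glutathione transferase (11.1 against 165 CPM).

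The same rule selected 2086 of 8899 kept cells in back skin (23.4%, interval 22.6% to 24.3%), which have a different make-up. Krt10 was the highest of the 5 genes in 1047 of them and in 0 of the 350 preputial gland cells, whereas Krtdap was the highest in 317 of the 350 and in 242 of the 2086. Krt79 was the highest in 25 and 262 cells. When both keratin axes were cut at 10 UMIs per 10000, 195 members (55.7%, interval 50.3% to 61%) lay in the Krt79 range with low Krt1 and Krt10. The Krt1/Krt10 range with low Krt79 held 3 members, the range high in both held 4, and 148 (42.3%, interval 37.1% to 47.7%) had neither. In back skin the same ranges held 237, 1438, 153 and 258 cells, so that 68.9% (interval 66.9% to 70.9%) lay in the Krt1/Krt10 range. The Krt79 limit ran through the members, with 93 of them between 5 and 20 per 10000, and the ranges are not cell types. Because the Krt1/Krt10 range held 3 cells in preputial gland, no comparison was drawn from it.

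**Figure D3:**
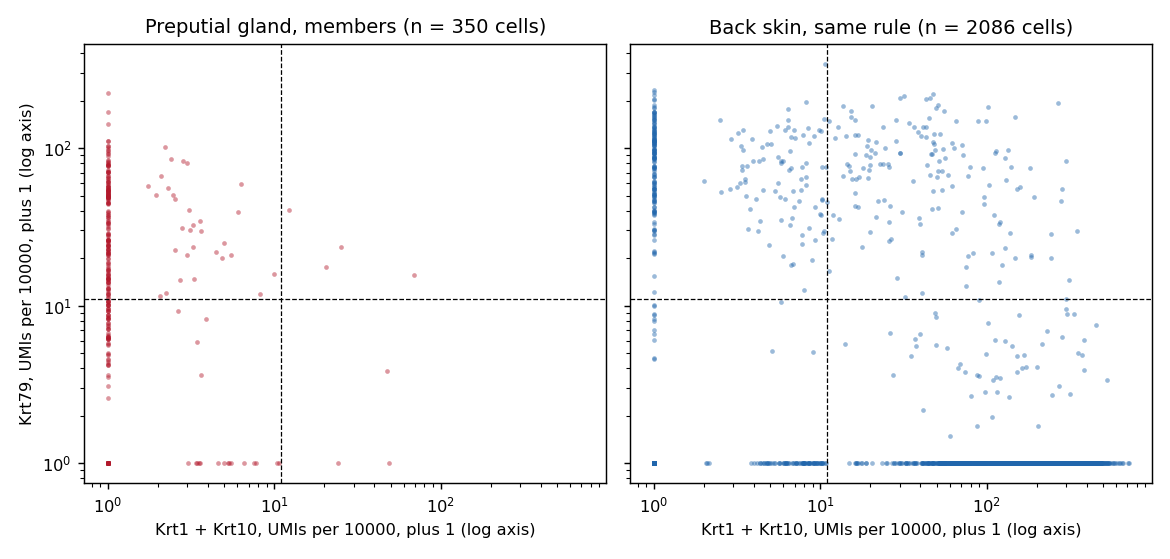
Krt79 against Krt1 + Krt10 in UMIs per 10000 plus 1 (log axes) for each cell of the rule in preputial gland and back skin, with the limits of 10 per 10000 dashed. Of the 350 preputial gland cells 7 lie to the right of the vertical limit, whereas most back skin cells do.

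Against back skin cells of the same rule, 2923 genes were described, of which 506 (17.3%) were at least 2-fold higher and 774 (26.5%) at least 2-fold lower in preputial gland, with a median log2 ratio of -0.27. With that median set to 0 the counts were 646 and 575. In the list of cornified envelope genes, 21 of 27 described genes were at least 2-fold lower and 3 higher (median -3.92). Of these 27, however, 18 reached 50 CPM in back skin alone and so were described because they were high there, and of the 8 at 50 CPM in both tissues 3 were higher and 3 lower. Loricrin (Lor), the main envelope protein of the epidermis, had 1.31 CPM from 2 UMIs in preputial gland and 2904 CPM in back skin (-11.11, interval -14.16 to -9.26). Filaggrin (Flg) was at 3.93 against 288 CPM (-6.19, interval -7.64 to -5.07). Flg2, Hrnr, Lce1a1, Lce1a2, Lce1b and Lce1m had 0 UMIs in the members, where the limit of 3 UMIs corresponds to 1.97 CPM. Flg2 was at 396 CPM and Lce1m at 1180.4 CPM in back skin. Set at that limit, the members were 201-fold and 600.2-fold lower. The reads of near-identical Lce1 genes can be split between them. Involucrin (Ivl) was at 38 against 141 CPM. The 3 higher genes were Sprr1a (5059.6 against 372 CPM, 3.76, interval 3.70 to 3.83), Cst6 (74491 against 9852 CPM) and Anxa1 (2899 against 678 CPM).

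**Figure D4:**
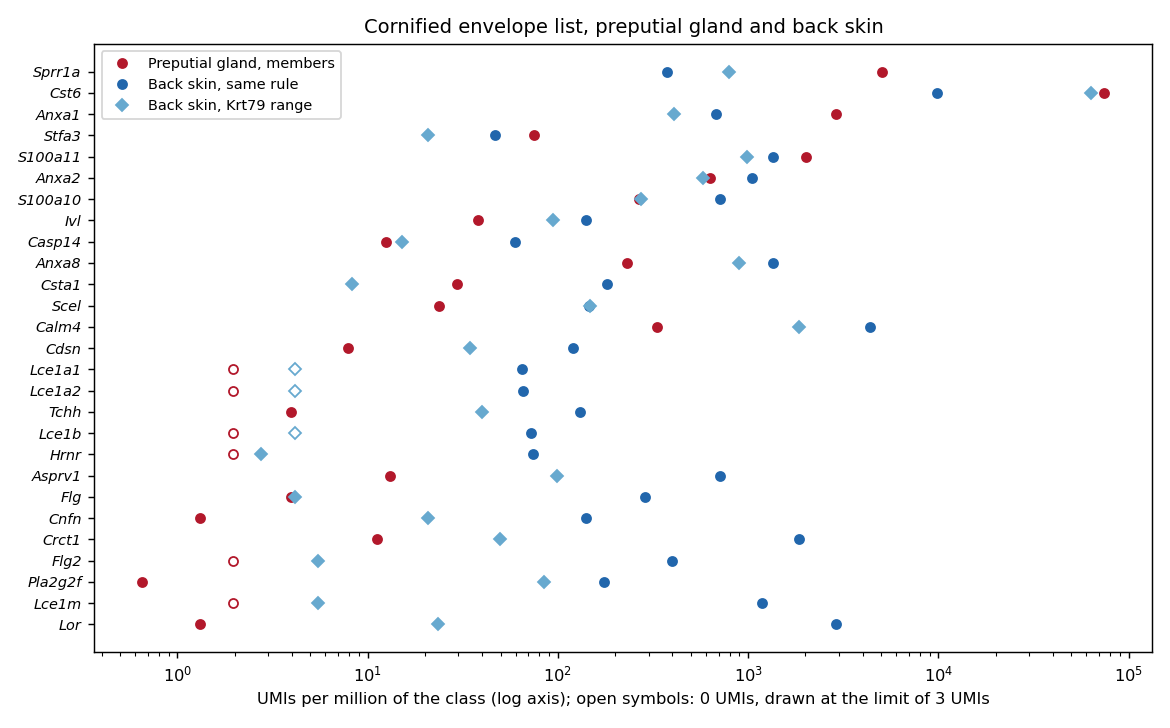
CPM (log axis) of the 27 described cornified envelope genes in the members, in back skin cells of the same rule and in the Krt79 range of back skin, ordered by the ratio of the first 2. Sprr1a, Cst6, Anxa1, Stfa3 and S100a11 are to the right in preputial gland, and the other 22 genes to the left of back skin cells of the same rule, down to Lor at 1.31 CPM.

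Keratins and desmosomal genes differed in both directions. Krt77 was at 1.31 CPM in the members and 5112 CPM in back skin (-11.93, interval -14.97 to -10.08), Krt78 at 0 against 137 CPM, and the desmoglein Dsg1a at 19 against 665 CPM. Dsc2, in contrast, was at 196 against 2.19 CPM (6.48, interval 5.78 to 7.28), Dsg3 at 304 against 69.7 CPM, Krt8 at 252 against 0.387 CPM (9.35, interval 7.79 to 11.63, from 3 UMIs in back skin) and Krt6a at 1819 against 127 CPM. The list of spinous genes as a whole had 5 of 26 higher and 10 lower, against 3 and 3 of the 17 at 50 CPM in both classes. Of barrier lipid genes, 5 of 16 described genes were at least 2-fold higher and 8 at least 2-fold lower (median log2 ratio -0.86), against 2 and 1 of the 6 at 50 CPM in both classes. Abca12, the lipid transporter of lamellar granules, was at 12.5 against 121 CPM and the ceramidase Acer1 at 0.656 against 138 CPM, while Alox12e was at 1125 against 217 CPM.

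Secreted antimicrobial proteins and protease inhibitors were the genes with the largest ratios in the other direction. Lcn2 was at 4836 CPM in the members and 0.645 CPM, 5 UMIs, in back skin (12.87, interval 11.65 to 14.50). Slpi was at 3593 against 2.71 CPM (10.37, interval 9.76 to 11.07), Wfdc18 at 2387 against 6.97 CPM (8.42, interval 8.03 to 8.84), AA467197 at 3138 against 5.03 CPM and Pglyrp1 at 305 against 0.516 CPM. Lcn2 was also at 2291 CPM in preputial gland basal keratinocytes and at 2346 CPM in Dbi-high cells, so it was high in other preputial gland cells too. Of the antimicrobial list, 9 of 18 described genes were at least 2-fold higher and 4 at least 2-fold lower (median log2 ratio 0.94), against 3 and 1 of the 8 at 50 CPM in both classes, and of proteases and inhibitors, 12 of 26 described genes were at least 2-fold higher and 9 at least 2-fold lower (median log2 ratio 0.81), against 6 and 1 of the 10 at 50 CPM in both classes. The lower proteases included the desquamation kallikreins Klk5 (1.31 against 102 CPM) and Klk7 (12.5 against 515 CPM), whereas Klk10 was at 82.6 against 7.61 CPM. Other genes at the high end were Serpina1e, Car2 (carbonic anhydrase 2, 692 against 0.645 CPM), Igfbp2 (989 against 1.03 CPM), Serpinb3a and Cck. Igfbp2 and Cck were also at 919.9 and 967 CPM in preputial gland basal keratinocytes. At the low end stood Krt77, Lor, Serpinb2, Mt4, Pla2g2f, Agpat4, Pkib, Acer1, Ggct and Homer2, and the hemoglobin genes Hbb-bs (0.656 against 579 CPM) and Hba-a1, which belong to red cells. Mt4, a metallothionein of squamous epithelium, had 0 UMIs in the members and 1501 CPM in back skin. Set at the limit of 3 UMIs, it was 763-fold lower, with an upper log2 bound of -9.28.

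Transcription factors of epidermal differentiation were mostly lower than in back skin, 16 of 26, with 3 higher (median -1.36), against 3 and 8 of the 15 at 50 CPM in both classes. Klf4, a factor of barrier formation, was at 85.9 against 719.7 CPM, Gata3 at 14.4 against 362 CPM and Hopx at 4.59 against 197 CPM. Ehf was the highest of the 3, 376 against 54.9 CPM. Immediate early and dissociation stress genes were lower too, 17 of 27 (median -1.81), against 1 and 11 of the 20 at 50 CPM in both classes, for example Fos at 102 against 763 CPM and Atf3 at 70.1 against 599 CPM. The part of dissociation in the other differences was not tested. In the Notch list 3 of 5 genes were lower, including the target Hes1 at 57 against 281 CPM, with 0 and 1 of the 2 at 50 CPM in both classes higher and lower. For the remaining lists, genes higher and lower in preputial gland are given in that order. Sebocyte lipid genes had 6 and 8 of 18, against 1 and 3 of the 7 at 50 CPM in both classes. Duct and upper follicle genes had 7 and 5 of 14, against 4 and 0 of the 5 at 50 CPM in both classes. Basal and basement membrane genes had 1 and 5 of 14, against 1 and 1 of the 8 at 50 CPM in both classes. Tight junction genes had 1 and 2 of 10, against 1 and 0 of the 8 at 50 CPM in both classes. Other keratins had 3 and 2 of 7, against 2 and 0 of the 4 at 50 CPM in both classes. Of the Hox genes Hoxa7 was at 11.8 against 61.7 CPM.

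In back skin the cells of the rule had 318 genes (11.1%) at least 2-fold higher and 204 (7.13%) at least 2-fold lower than basal keratinocytes, of 2861. The balance turned with the gene filter, to 680 higher and 794 lower from 10 CPM and 1620 and 2904 with no filter. With a 5-gene sum of at least 25 per 10000, 134 were lower. The back skin cells of the rule were not uniform either. Their inner root sheath and matrix markers summed to 528 CPM and their fibroblast markers to 562 CPM, and the 258 cells with neither keratin held 5528 and 2258 CPM of them, whose part in the ratios was not tested. The 2 contrasts share no cells. Of 2065 genes described in both, 156 were higher in preputial gland and 145 in back skin, and 87 were higher in both, which is 55.8% of the first and 60% of the second list. For lower genes 95 were shared, 35.6% of 267 and 68.3% of 139. In 5 genes, Bhlhe40, Capg, Dsg3, Gjb2 and Scd1, the ratios lay past 2-fold in opposite directions. Scd1 was seen after thinning in 7.71% of the preputial gland members, 13.5% of basal cells and 18.4% of fibroblasts.

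Back skin also holds cells of the Krt79 range, and several leading genes of the preputial gland cells were abundant in them. Between the 195 cells of the Krt79 range in preputial gland and the 237 in back skin, 485 of 2855 genes (17%) were at least 2-fold higher and 670 (23.5%) at least 2-fold lower, with a median of -0.18 (580 and 567 with that median at 0). Cst6 was at 92221 CPM in preputial gland and 63528 CPM in back skin (0.54, interval 0.52 to 0.55), Krt17 at 10368 and 16056 CPM (-0.63, interval -0.67 to -0.59) and Defb6 at 8165 and 8435 CPM (-0.05, interval -0.10 to 0.00). The cornified envelope list had 6 of 12 genes lower here and 2 higher (Sprr1a and Anxa1), with a median of -0.77, against 2 and 2 of the 8 at 50 CPM in both classes. Lcn2 stayed far apart at 5399 against 2.76 CPM (10.93, interval 9.08 to 13.98, from 2 UMIs in back skin). Slpi and Wfdc18 had 0 UMIs in the back skin range. Set at the limit of 3 UMIs there, they were 647-fold and 437-fold higher in preputial gland, with lower log2 bounds of 9.04 and 8.47. Igfbp2, Car2, Pglyrp1, Dsc2, Atp1b1, Gstp1, Krt8, Gabrp and Pdss1 completed the high end. At the low end were Krt77 (1.01 against 705 CPM), Serpinb2, Pkib, Pou3f1, Aqp3 (the water and glycerol channel, 4.05 against 582 CPM), Ptgs1, Tmprss4, Homer2, Hbb-bs, Pla2g2f, Capns2 and Flrt3. Krt15 was at 50.6 against 1774 CPM, the chemokine Ccl27a at 111 against 1577 CPM and Gata6, a factor of sebaceous duct cells, at 47.6 against 157 CPM. Of the duct and upper follicle list 9 of 17 genes were lower and 2 higher, but 8 had reached 50 CPM in back skin alone, and the higher and lower counts were 1 and 1 of the 8 at 50 CPM in both classes. Of immediate early and stress genes 19 of 27 were lower, with 0 and 12 of the 19 at 50 CPM in both classes higher and lower.

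Within the preputial gland, members of the Krt79 range were set beside the 148 members with neither. Of 2311 genes 86 (3.72%) were at least 2-fold higher and 98 (4.24%) at least 2-fold lower, and without the 12 cells with fibroblast genes the lower count was 63. These counts moved with the selection of cells, to 140 higher with a 5-gene sum of at least 100 per 10000 and to 204 higher and 210 lower with Dbi under 50, and to 156 lower with every cell weighted equally. The median UMIs per cell were 4806 and 3146. Cst6 was at 92221 against 43146 CPM (1.10, interval 1.07 to 1.12) in the sums, while the medians over cells were 686 and 33.9 per 10000, with 28 cells at 0 among those with neither and a highest cell of 5014. Defb6 was at 8165 against 3359 CPM (1.28, interval 1.21 to 1.36) and Gsdma at 258 against 75.9 CPM (1.77, interval 1.27 to 2.30). Of 10 described duct and upper follicle genes, 2 were at least 2-fold higher (Defb6 and Cst6) and 2 lower (Klk10 and Cd34). Of the 8 at 50 CPM in both classes, 2 were higher and 1 lower. Cldn4 was at 245 against 81.8 CPM, the paraoxonases Pon3 and Pon2 at 145 against 33.9 and 409 against 134 CPM, and the lipid droplet gene Cidea at 97.1 against 25.9 CPM, whose ratio reversed when Dbi was held under 50 per 10000. Cdc42ep4, Ilvbl, Atp8a1, Hbegf, Nudt17, Ephx3 and Sdr16c6 also stood at this end. S100a8 and S100a9, the subunits of calprotectin, were higher in cells with neither, S100a8 at 669 against 33.4 CPM (-4.32, interval -4.89 to -3.81) and S100a9 at 104 against 5.06 CPM. Cstdc5, a stefin-like cystatin, was at 236 against 31.4 CPM and Krt16 at 295 against 64.8 CPM. Fxyd4, Alox12, Fth1 and Cyba were other named genes on this side, and Cd34, Sparc, Igfbp5, Serping1 and Lgals1 are genes that fibroblasts express. The summed fibroblast markers were at 575 CPM in the cells with neither and 106 CPM in the Krt79 range, and the summed immune markers at 248 and 44.5 CPM. Without cells of mixed markers the lower count was 65. The ratios of Cxcl1, Ly6a, Igfbp5, Fth1, Fos and Atf3 changed sign under some selections of cells. Krt17 was at 10368 and 9176 CPM, Fabp5 at 7939 and 7070.3 CPM and Sprr1a at 4954 and 5094 CPM in the ranges.

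Cst6 varied widely from cell to cell. The members had a median of 393 UMIs per 10000, with quartiles of 55.7 and 928 and a highest value of 5014, while 29 cells had none. Lgals7, by comparison, had a median of 119.7 and quartiles of 92.2 and 151. In the Krt79 range 191 of 195 members had at least 50 per 10000 (97.9%, interval 94.8% to 99.4%), against 70 of the 148 with neither (47.3%, 39% to 55.7%). In back skin 191 of the 237 cells of the Krt79 range did (80.6%, 75% to 85.4%) and 65 of the 1438 of the Krt1/Krt10 range (4.52%, 3.51% to 5.73%).

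**Figure D5:**
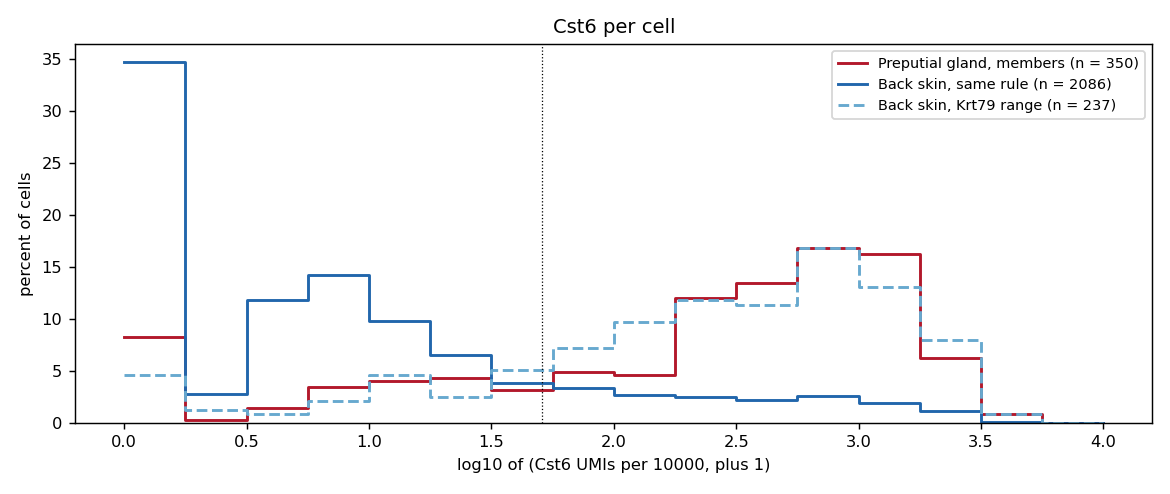
Share of cells (percent) by log10 of Cst6 UMIs per 10000 plus 1, for the members, back skin cells of the same rule and the Krt79 range of back skin, with 50 per 10000 dotted. The members and the back skin Krt79 range have most cells to the right of the line, and most of the 2086 back skin cells lie to its left.

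A division at 50 per 10000, chosen after its values were seen and with 41 members between 25 and 100, is given as a description. Of the members without fibroblast genes 74 lay below it and 264 at or above it, with median depths of 3078 and 4384 UMIs. Krtdap (8214 below and 11496 CPM above), Krt17 (7305 and 10449 CPM), Lgals7 (12269 and 12606 CPM) and Fabp5 (7406 and 8029.9 CPM) were abundant on both sides. Krt79 was at 434 and 3523 CPM, Ly6g6c at 282 and 2777 CPM, Cldn4 at 33.7 and 219 CPM and Spink5 at 96.8 and 443 CPM. On the low side S100a8 was at 1036 CPM against 96 CPM, Cstdc5 at 594 against 70 CPM, Serpinb3a at 160 against 49.6 CPM and Krt5 at 863 against 448 CPM. The immune markers summed to 320 and 77.9 CPM, and to 927 CPM in free RNA, and their part was not tested. All S100a8 UMIs of the members, 368, lay in 52 cells.

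The members also spread along the basal keratins. Groups split at the quartiles of the members' sum of Krt5, Krt14 and Krt15 held 88, 88, 87 and 87 cells, with median depths of 3267, 3881, 3948 and 4290 UMIs. From the lowest to the highest group Krt79 was at 1355, 2168, 3323 and 4800.4 CPM, Defb1 at 830, 1354, 1649.8 and 2063 CPM and Dbi at 6051, 7428, 8099 and 10229.9 CPM. Slpi ran the other way, with 5566, 4945, 3165 and 1153 CPM, as did Spink5 with 540.1, 452, 420.2 and 163 CPM and AA467197 with 3899.6, 4103, 3169.9 and 1592 CPM. Krtdap was at 12089.5, 11938, 11377 and 8472 CPM and Cst6 at 71271, 90669, 67183 and 68416 CPM, with no order over the groups for Cst6. Most UMIs of the sum came from Krt14, 2922 in the highest group against 368 from Krt5 and 58 from Krt15, and Krt79 and Dbi are genes of the rule.

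Rank correlations across the 350 members, all from 1 library and thinned to 1000 UMIs, are given as a description and in brackets without the 12 cells with fibroblast genes. Spearman's rho was 0.67 (0.65) for Cst6 and Ly6g6c, 0.55 (0.53) for Cst6 and Krt79, 0.56 (0.54) for Krt79 and Dbi, 0.50 (0.48) for Krt79 and Defb6 and 0.43 (0.40) for Krt79 and Krt14. With Krt5, the partner of Krt14, it was -0.30 (-0.34) for Cst6 and -0.17 (-0.20) for Krt79, the opposite sign to Krt14. The rule genes Krt79 and Krtdap had a rho of 0.09 (0.05). The rule sets a minimum on a sum that holds both, which can lower this value, so nothing is read from it. The rule also limits Dbi from above, so the values of Krt79 with Dbi and other genes hold within the selected cells only.

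Finally the members were set beside the 367 Dbi-high cells of the gland, whose level of Dbi the rule excludes. Of 2795 genes 472 (16.9%) were at least 2-fold higher and 687 (24.6%) at least 2-fold lower in the members, with a median of -0.31 (593 and 508 with that median at 0). Of sebocyte lipid genes 28 of 30 were lower, and 2 higher (median -4.14), against 0 and 10 of the 10 at 50 CPM in both classes. The desaturase Scd1 was at 63.6 against 4729.9 CPM (-6.22, interval -6.52 to -5.93), the wax synthase Awat2 at 12.5 against 1261 CPM (-6.66, interval -7.40 to -6.02), and Idi1 of the mevalonate pathway at 212 against 11969.5 CPM (-5.82, interval -5.98 to -5.66). Free RNA held 3281 CPM of Scd1, 307 CPM of Awat2 and 12424 CPM of Idi1, all above the members. After thinning, Idi1 was seen in 20.3% of the members and 36.4% of fibroblasts, which is no more than the background. Several keratinocyte lists had more genes on the other side. Of proteases and inhibitors, 16 of 18 were higher and 0 lower, against 7 and 0 of the 8 at 50 CPM in both classes. Of the antimicrobial list, 15 of 16 were higher and 1 lower, against 5 and 0 of the 5 at 50 CPM in both classes. Of spinous genes, 14 of 20 were higher and 2 lower, against 9 and 1 of the 14 at 50 CPM in both classes. Of barrier lipid genes, 4 of 12 were higher and 4 lower, against 1 and 2 of the 6 at 50 CPM in both classes. Immediate early and dissociation stress genes were also more often higher, 12 of 22, with 3 lower (median 1.04). Of the 14 at 50 CPM in both classes, 6 were higher and 1 lower. The part of dissociation in this comparison was not tested. Krt17 was at 9843 against 304 CPM and Defb6 at 6627 against 356 CPM. Fabp5 was abundant in both, 7844 and 4517 CPM. By its definition the Dbi-high class takes in 18 cells that also had the keratinocyte sum. These held Krt17 at 7388, Defb6 at 7734 and Cst6 at 87195 CPM, far above the class as a whole. Their part in the levels of the class was not tested. The Krt17, Defb6 and Cst6 levels of the class therefore do not describe its other cells alone.

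Markers of other cell types were summed over the members and are given beside free RNA. Merkel cell markers, at 294 CPM, were above their level in basal keratinocytes, 115 CPM. Sebocyte markers summed to 8736 against 4699 CPM, but Dbi alone, limited by the rule, gave 8067 CPM in the members. Of the other sebocyte markers, Scd1, Plin2 and Mgst1 were at least 2-fold lower than in basal keratinocytes and Cidea at least 2-fold higher. The 6 fibroblast markers summed to 258 CPM in the members and 863 CPM in free RNA, with Dcn the most abundant at 176 CPM. The 7 immune markers summed to 115 CPM in the members and 927 CPM in free RNA, led by Cd74 at 90.5 CPM, with Trac at 0. The 5 endothelial markers summed to 1.31 CPM in the members and 25.9 CPM in free RNA, with Cdh5, Vwf and Egfl7 at 0, and the 5 contractile markers to 92.4 CPM in the members and 123 CPM in free RNA, led by Tagln at 63.6 CPM with Myh11 and Cnn1 at 0. The 4 melanocyte markers summed to 1.31 CPM in the members and 1.52 CPM in free RNA, with Dct, Tyrp1 and Mlana at 0, and the 7 inner root sheath and matrix markers to 7.87 CPM in the members and 5.07 CPM in free RNA, with Krt71, Krt25, Msx2 and Hoxc13 at 0. The 4 Merkel cell markers summed to 294 CPM in the members and 44.1 CPM in free RNA, of which Krt8 gave 252 and Krt18 42 CPM, with Krt20 and Atoh1 at 0. The 10 sebocyte markers summed to 8736 CPM in the members and 17513 CPM in free RNA, of which Dbi, limited by the rule, gave 8067 CPM, and Elovl3 was at 0. The part of free RNA and of single cells of other types in each level was not tested beyond the values given.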

How the data were processed

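Cells of back skin and preputial glands were dissociated enzymatically and measured by droplet-based 3′ RNA sequencing. The authors deposited raw UMI counts per gene and barcode for every barcode of the list, unfiltered and not normalized, made with Cell Ranger 4 per the file headers against mm10 per the submitters' notes (annotation release not given in the sources used here). Members, gene lists and classes were chosen with earlier results of these data known. Counts were summed over the cells of a class and divided by its total (CPM). Genes with at least 50 CPM in either class and 10 UMIs over both were described, and called at 2-fold. A class at 0 was set to a limit of 3 UMIs, and a share of 0 to a limit of 3 cells. Ratios and shares have exact binomial and levels exact Poisson intervals. Cells of one library are not replicates, so no significance test was made. Named genes were the 12 largest and 12 smallest ratios per comparison (UMIs in at least 10% of cells of the higher class), the list genes and the 15 most abundant genes. The 2 comparisons of Krt79 ranges and the division by Cst6 were chosen after seeing the data. Fibroblasts (Col1a1, Col1a2, Col3a1 and Dcn at 50 per 10000) gave background shares, and barcodes with at most 50 UMIs the free RNA. Doublets were not removed. As an alternative the 177 and 634 cells with the highest scores against simulated doublets (0.8% per 1000 kept cells) were left out, of which 6 and 275 were in the rule. Other alternatives changed cell filters, rule limits, gene filters, scaling and free RNA. Genes of a rule were left out of that comparison's counts. A few named genes are not reported here. The code for ratios and intervals was checked on simulated counts with known fold changes. Python 3.11.15, numpy 2.4.6, scipy 1.17.1, pandas 2.3.3 and scikit-learn 1.9.0 were used.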

Additional observations from a re-analysis of the deposited data

Results flagged for a closer look

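A few genes differed past 2-fold in opposite directions between the tissues, and the difference was not tested because each tissue has 1 library. Bhlhe40, a circadian and hypoxia repressor, had a log2 ratio of cells of the rule over basal cells of 1.13 in preputial gland (111 against 50.8 CPM) and -1.43 in back skin (53.8 against 145 CPM). Capg, an actin filament capping protein, had a log2 ratio of cells of the rule over basal cells of 1.14 in preputial gland (394 against 179 CPM) and -1.44 in back skin (71.5 against 194 CPM). Dsg3, a desmosomal cadherin, had a log2 ratio of cells of the rule over basal cells of 1.41 in preputial gland (304 against 115 CPM) and -1.38 in back skin (69.7 against 181 CPM). Gjb2, connexin 26, had a log2 ratio of cells of the rule over basal cells of 2.09 in preputial gland (258 against 60.7 CPM) and -1.57 in back skin (37 against 109.7 CPM). Scd1, a fatty acid desaturase, had a log2 ratio of cells of the rule over basal cells of -1.10 in preputial gland (63.6 against 137 CPM) and 1.83 in back skin (139 against 39 CPM). Scd1 was seen after thinning in 7.71% of the preputial gland members and 13.5% of basal cells, below the 18.4% of fibroblasts, and was at 3281 CPM in free RNA, and the part of free RNA in its ratio was not tested.

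Some barcodes were not members but carried the same genes. Of 662 preputial gland barcodes with more than 10% mitochondrial UMIs that had enough genes and UMIs, 52 met the rest of the rule, with Krtdap at 9093, Krt79 at 3615, Cst6 at 43704 and Krt10 at 27.8 CPM. Another 18 kept cells had the keratinocyte sum together with Dbi of at least 200 per 10000, and held Cst6 at 87195, Krtdap at 7017, Mgst1 at 2726, Scd1 at 1841 and Awat2 at 35.9 CPM, with a median of 4274 UMIs. By their level of Dbi these 18 meet the definition of the Dbi-high cells.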

How the results depend on the processing

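With 1 library per tissue, leaving out a library was not possible and no limit on the spread between mice can be given. No paired analysis was possible because each group holds 1 sample. The planned comparison of the Krt79 range with the Krt1/Krt10 range, and that of Krt1/Krt10 ranges between tissues, were not run because 3 cells stood in the preputial gland range. Of 244 counts and shares recomputed, 50 were labelled as moved and are given with their values in the next paragraph, and 194 were not. Of the values of named genes, 21 changed sign and 1481 left their counting interval with the same sign. Subtraction of free RNA, scaled to the least present marker list of another cell type, removed 5.07% of the members' UMIs and 0% in the range with neither.

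With at least 1000 genes and 2000 UMIs there were 61.3% in the Krt79 range, 36.1% in the range with neither. With a 5-gene sum of at least 100 per 10000 there were 140 higher (Krt79 range over neither), 223 cells chosen. With a 5-gene sum of at least 25 per 10000 there were 134 lower (over basal in back skin). With Dbi under 50 per 10000 there were 204 higher and 210 lower (Krt79 range over neither), 143 cells chosen. Without cells of mixed markers there were 65 lower (Krt79 range over neither). Without cells with fibroblast genes, an alternative chosen after seeing the data, there were 63 lower (Krt79 range over neither). With genes from 10 CPM there were 613 higher and 1844 lower (over basal), 1171 higher and 2026 lower (over back skin), 680 higher and 794 lower (over basal in back skin), 1321 higher and 1691 lower (over Dbi-high cells), 595 higher and 546 lower (Krt79 range over neither), 1225 higher and 1990 lower (Krt79 range over back skin). With no filter on low genes there were 1199 higher and 3287 lower (over basal), 3227 higher and 3175 lower (over back skin), 1620 higher and 2904 lower (over basal in back skin), 2389 higher and 2666 lower (over Dbi-high cells), 1005 higher and 1210 lower (Krt79 range over neither), 1645 higher and 2971 lower (Krt79 range over back skin). With a limit of 1.5-fold there were 466 higher and 857 lower (over basal), 1165 lower (over back skin), 518 higher and 416 lower (over basal in back skin), 1050 lower (over Dbi-high cells), 259 higher and 220 lower (Krt79 range over neither), 745 higher and 1021 lower (Krt79 range over back skin). With every cell weighted equally there were 156 lower (Krt79 range over neither). With range limits of 5 per 10000 there were 66.9% in the Krt79 range, 28.6% in the range with neither. With range limits of 20 per 10000 there were 42.3% in the Krt79 range, 0.286% in the double range, 56.3% in the range with neither.

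Log2 ratios with at least 1000 genes and 2000 UMIs were Cxcl1 1.12, Igfbp5 1.02, Ly6a 0.50 (Krt79 range over neither). Log2 ratios with at most 5% mitochondrial UMIs were Atf3 0.025 (over Dbi-high cells). Log2 ratios with a 5-gene sum of at least 100 per 10000 were Tchh -0.97 (over basal in back skin) and Krt15 -0.28 (over Dbi-high cells) and Atf3 0.81, Cxcl1 0.74, Fos 0.16, Fth1 0.30, Igfbp5 0.32, Ly6a 0.64 (Krt79 range over neither). Log2 ratios with Dbi under 50 per 10000 were Cidea -1.48 (Krt79 range over neither) and Krt16 0.87 (Krt79 range over back skin). Log2 ratios without the highest doublet scores were Tchh -0.53 (over basal in back skin). Log2 ratios without cells of mixed markers were Cxcl1 0.75 (Krt79 range over neither). Log2 ratios without cells with fibroblast genes were Cxcl1 0.73, Ly6a 0.55 (Krt79 range over neither). Log2 ratios with free RNA subtracted were Idi1 -4.69 (Krt79 range over back skin). Log2 ratios with basal keratins of at least 100 per 10000 were Nebl -0.076, Zfp750 -0.0095 (over basal). The cause of each change was not tested.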
